A study of Homo sapiens with 2 samples.

Results

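Processed pseudogenes are copies of spliced messenger RNAs that were reverse transcribed and inserted into the genome, and they were followed here together with the genes they were copied from. The members are all transcripts to which GENCODE v44 gives the transcript type processed pseudogene, found by matching transcript identifiers without their version. They number 10115 of 206696 listed transcripts and belong to 10114 genes. The parent of a member is the protein-coding gene whose symbol remains once the final P and number are removed, so that EEF1A1P5 belongs to EEF1A1. A parent was found in this way for 6061 members, which share 1749 parents, while 3466 members are named only by an Ensembl gene identifier.

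Retrotransposed copies arise when the LINE-1 machinery acts on a cellular mRNA. They usually lack introns, often end in a stretch of A that came from the poly(A) tail, and carry no promoter of their own, so that transcription usually depends on where they landed. Abundant housekeeping mRNAs, those for ribosomal proteins above all, have left the most copies. Because young copies are nearly identical to the parent mRNA, short reads from the parent can match the copy as well, and a read-assignment program has to divide them.

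The study dealt with the methyltransferase METTL8 and mitochondrial tRNAs, and the libraries here hold total RNA, depleted of ribosomal RNA, of the HEK293 Flp-In T-Rex line, a human embryonic kidney line with a site for inserting transgenes and a tetracycline repressor. Both libraries, replicate 1 and replicate 2, belong to 1 group of untreated cells grown in high glucose DMEM with foetal calf serum, and whether they came from separate cultures is not stated. There was therefore no contrast between conditions, and the spread given below is that between 2 libraries, which may be technical.

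Replicate 1 held 25158962 and replicate 2 held 27143860 estimated counts. Values below are the deposited normalised counts unless estimated counts are named. Levels of different genes are compared as normalised count per kb of transcript, unless counts not divided by length are named. For a parent gene they are summed over all listed transcripts. Of the markers for the cell line, VIM stood at 16407 and 15363 and NEFL at 1868 and 1848, while NEFM was at 14.5 and 18.7 and PAX2 at 33.9 and 50.1. For other tissues, ALB, PTPRC and MYH7 of liver, blood and heart muscle were at 0 in both libraries, HBB was at 179 and 182, and COL1A1 at 155.6 and 291.

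The annotation and the sequences fitted the description of the class. A single exon made up 87.2% of the members. Of the 6061 members with a named parent, 4759 aligned to a coding transcript. Of these 4759, 4582 (96.3%) aligned best to the parent their symbol names, and for the members without alignment the parent rests on the symbol alone. An A run of 8 or more bases lay within 100 bases after the end of 11.8% of members and within 100 bases before the start of 5.30%. The hexamer AATAAA, the signal for polyadenylation, was found on the member's own strand within 100 bases after the end of 19.98% and before the start of 9.63%. Among the 25 members with the highest counts, 15 had such an A run and 18 had the hexamer after their end.

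The stretches after RPL13AP5 (chr10:96750900-96750959, plus strand) and RPS3AP6 (chr15:59769147-59769206, plus strand), members of 2 ribosomal protein families, show these marks, with the longest A run in capitals and AATAAA before it (GRCh38, 5′ to 3′).
RPL13AP5: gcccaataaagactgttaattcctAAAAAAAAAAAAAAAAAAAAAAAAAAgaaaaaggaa
RPS3AP6: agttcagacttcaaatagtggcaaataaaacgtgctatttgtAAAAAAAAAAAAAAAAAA
The run is 26 bases long after RPL13AP5, and it is 18 bases long within the 60 bases shown after RPS3AP6.

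How far a member can be told from its parent depends on single bases, and 5 pairs show the range. Capitals mark the bases that differ, and parents are read from the coding sequence of the MANE Select transcript, the agreed reference transcript of a gene. EEF1A1P5, the member with the highest count, differs from the EEF1A1 coding sequence of 1389 bases at 4 positions, T294C, T720C, T933G and C1094T, written as parent base, position from the first base of the pseudogene transcript, and pseudogene base. The 150 bases of the pseudogene at chr9:133019704-133019853 (plus strand) hold the first of them.
EEF1A1P5: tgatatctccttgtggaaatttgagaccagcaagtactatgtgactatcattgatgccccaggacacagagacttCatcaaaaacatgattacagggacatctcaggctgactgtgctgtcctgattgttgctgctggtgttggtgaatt
EEF1A1: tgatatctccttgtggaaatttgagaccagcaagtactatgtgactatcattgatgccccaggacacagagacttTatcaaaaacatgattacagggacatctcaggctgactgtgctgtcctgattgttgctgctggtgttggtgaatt
RPL39P3 (chr6:73373108-73373263, minus strand) is identical to the whole coding sequence of RPL39, which is therefore printed once.
RPL39P3: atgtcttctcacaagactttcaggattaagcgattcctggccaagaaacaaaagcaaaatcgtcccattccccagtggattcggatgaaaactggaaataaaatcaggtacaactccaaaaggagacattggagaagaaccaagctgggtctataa
RPL22P1 has no substitution along its 350 aligned bases. These cover neither all 410 bases of the pseudogene nor all 387 of the RPL22 coding sequence. Within the alignment it lacks 7 bases of that coding sequence, positions 88 to 94. They are shown in capitals in the parent beside the pseudogene at chr3:169483914-169484013 (minus strand).
RPL22P1: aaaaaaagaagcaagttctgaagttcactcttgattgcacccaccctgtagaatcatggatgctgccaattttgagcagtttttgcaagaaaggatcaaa
RPL22: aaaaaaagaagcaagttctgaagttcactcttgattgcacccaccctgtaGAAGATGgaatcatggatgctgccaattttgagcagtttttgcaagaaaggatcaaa
The member with gene identifier ENSG00000213058, closest to RPS14, is the most divergent of the 25 highest and has 20 substitutions along 352 aligned bases, 10 of which lie in the 120 bases at chr1:178411741-178411860 (plus strand).
ENSG00000213058: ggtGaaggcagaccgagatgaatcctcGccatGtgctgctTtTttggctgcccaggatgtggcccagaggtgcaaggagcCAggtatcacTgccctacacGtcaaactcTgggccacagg
RPS14: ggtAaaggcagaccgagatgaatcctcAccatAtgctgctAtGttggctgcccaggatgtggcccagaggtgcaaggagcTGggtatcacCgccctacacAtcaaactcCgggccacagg
RPS4XP22, a lower member with mostly private sequence, has 66 substitutions along 780 aligned bases and 14 in the 120 bases at chr19:9683698-9683817 (minus strand).
RPS4XP22: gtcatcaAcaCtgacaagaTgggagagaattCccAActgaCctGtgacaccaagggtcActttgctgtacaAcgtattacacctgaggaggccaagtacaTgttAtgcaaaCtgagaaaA
RPS4X: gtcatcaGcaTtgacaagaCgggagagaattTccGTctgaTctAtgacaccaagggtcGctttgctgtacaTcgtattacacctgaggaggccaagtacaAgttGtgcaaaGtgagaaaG

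As a class, the processed pseudogenes took 317977 estimated counts of replicate 1 and 303487 of replicate 2. These were 1.26% (exact 95% Clopper-Pearson interval 1.260 to 1.268%) and 1.12% (1.114 to 1.122%) of the library, or 1.19% ± 0.103 (SD, n = 2). The intervals cover counting error only, and the libraries differed by more than that. Protein-coding transcripts held 64.1% ± 0.852, lncRNA transcripts 2.35% ± 0.165 and unprocessed pseudogenes, which arise by gene duplication and keep their introns, 0.0439% ± 0.00423. Without EEF1A1P5, the class share fell to 0.766% ± 0.0213.

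Counts above 0 were listed for 3689 members in replicate 1 and 3966 in replicate 2, and 5500 members were at 0 in both. By sampling alone, a member at 0 may still have made up to 3 counts, 1.19e-05% of replicate 1. At 1 or more normalised counts in both libraries there were 2702 members, or 26.7% (exact interval 25.9 to 27.6%), against 40.0% of all listed transcripts, 45.5% of protein-coding transcripts, 27.8% of lncRNA transcripts and 11.9% of unprocessed pseudogenes. Most of them were low, with 847 at 10 or more, 167 at 100 or more and 31 at 1000 or more in both libraries. With the threshold set on estimated counts scaled to a library of 1000000, 445 members remained.

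The counts lay in few members. The 20 highest held 65.8% ± 3.21 of all member counts and the 100 highest held 84.4% ± 1.56. EEF1A1P5 (ENST00000436459.2, chr9:133019486-133020874, plus strand), a copy of the mRNA for elongation factor 1-alpha, which brings aminoacyl-tRNA to the ribosome, stood at 128628 in replicate 1 and 92518 in replicate 2. It alone held 38.2% and 32.9% of member counts and ranked 8 and 9 among all listed transcripts.

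**Figure D1:**
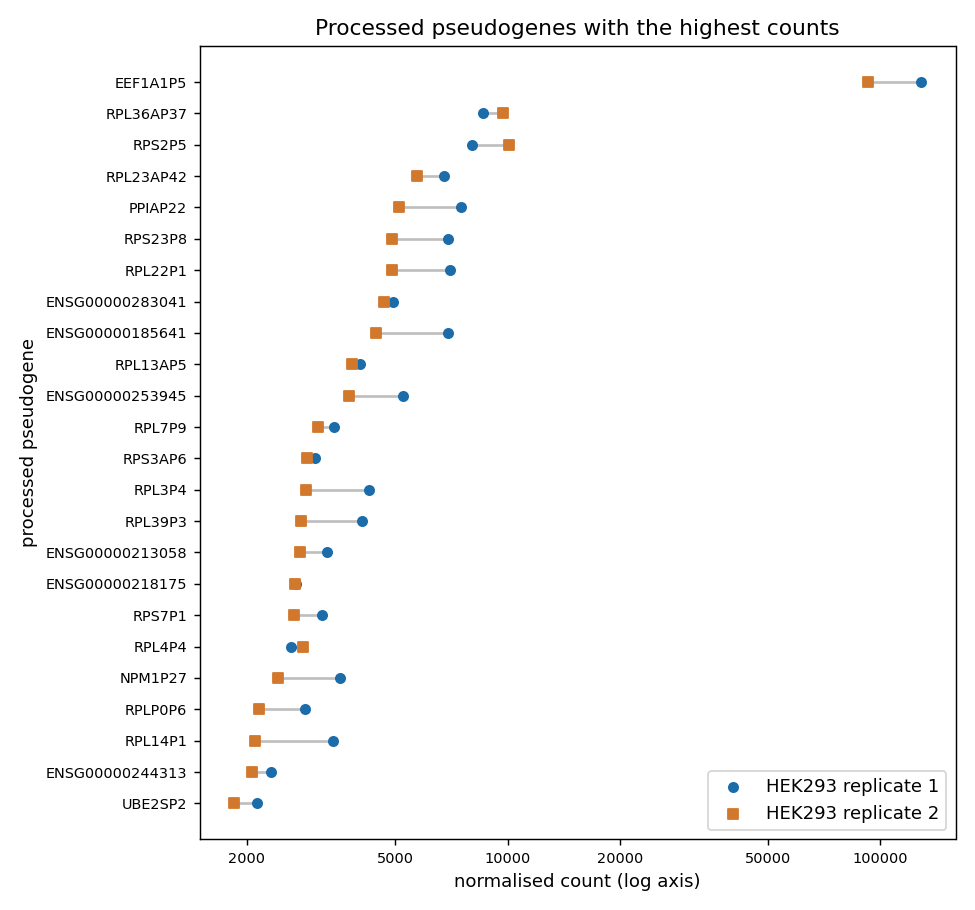
Normalised count on a log axis (x) of processed pseudogenes among the 25 with the highest value in the lower library, with a circle for HEK293 replicate 1 and a square for replicate 2. EEF1A1P5 at 128628 and 92518 stands far to the right, and the other members lie between 1849 and 10079.

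Of these 25 members, all single-exon, 20 came from cytosolic ribosomal protein genes by symbol or by closest coding sequence. All 25 together held 71.9% and 67.7% of member counts, and 21 of the 25 were higher in replicate 1. RPL36AP37, within an intron of PLEKHA7 and identical to the coding sequence of RPL36A, stood at 8613 and 9695. RPS2P5, within an intron of TAOK3 on the opposite strand, stood at 8028 and 10079, and RPL4P4, within an intron of MAP3K13 on the opposite strand, at 2622 and 2833. These members had the higher value in replicate 2.

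RPL23AP42 stood at 6770 and 5719, RPS23P8 at 6935 and 4888, and RPL22P1 (within an intron of MECOM) at 6997 and 4884. PPIAP22, from the gene for the proline isomerase cyclophilin A, was at 7506 and 5124. Then came RPL13AP5 at 4029 and 3818, RPL7P9 at 3428 and 3099, RPL3P4 at 4244 and 2882, RPS3AP6 at 3040 and 2902 and RPL39P3 at 4063 and 2796. All 9 were higher in replicate 1, with log2 ratios of replicate 2 to replicate 1 between -0.07 for RPS3AP6 and -0.56 for RPL3P4.

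Of the lower members of the 25, RPS7P1 stood at 3174 and 2666, NPM1P27 (from the gene for the nucleolar chaperone nucleophosmin) at 3562 and 2419, RPLP0P6 at 2855 and 2148, RPL14P1 at 3396 and 2105, and UBE2SP2 (from a ubiquitin-conjugating enzyme gene) at 2128 and 1849. The remaining 6 carry no symbol that names a parent. Their closest coding sequences were those of EEF1G for ENSG00000283041 (4926 and 4668), RPS25 for ENSG00000185641 (6913 and 4432), RPL36A for ENSG00000253945 (5250 and 3746), RPS14 for ENSG00000213058 (3271 and 2767), RPLP1 for ENSG00000218175 (2715 and 2683) and RPS10 for ENSG00000244313 (2326 and 2058). Per kb, ENSG00000253945, only 93 bases long, ranked second of all members at 56454 and 40277.

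How much of a member's sequence is its own was measured by cutting each transcript into all overlapping words of 50 nt and asking whether each word also occurs, on either strand, in a transcript of another gene. Words elsewhere in the genome were not searched. Of all members, 5007 (49.5%) shared no word, and 14.8% of these were at 1 or more in both libraries (exact interval 13.8 to 15.8%). This share was 35.1% where up to 10% of words were shared, 47.2% between 10 and 50%, 38.5% between 50 and 90% and 25.99% over 90%.

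The counts were distributed differently. The 647 members that shared between 50 and 90% of their words, 6.40% of the class, held 73.2% ± 2.28 of its counts, EEF1A1P5 among them. The 431 members over 90% held 10.1% ± 0.892, and the 5007 members with no shared word held 1.81% ± 0.375. Of the 25 highest members, 23 shared at least 50% of their words, and ENSG00000218175 (33.1%) and ENSG00000213058 (4.55%) did not.

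**Figure D2:**
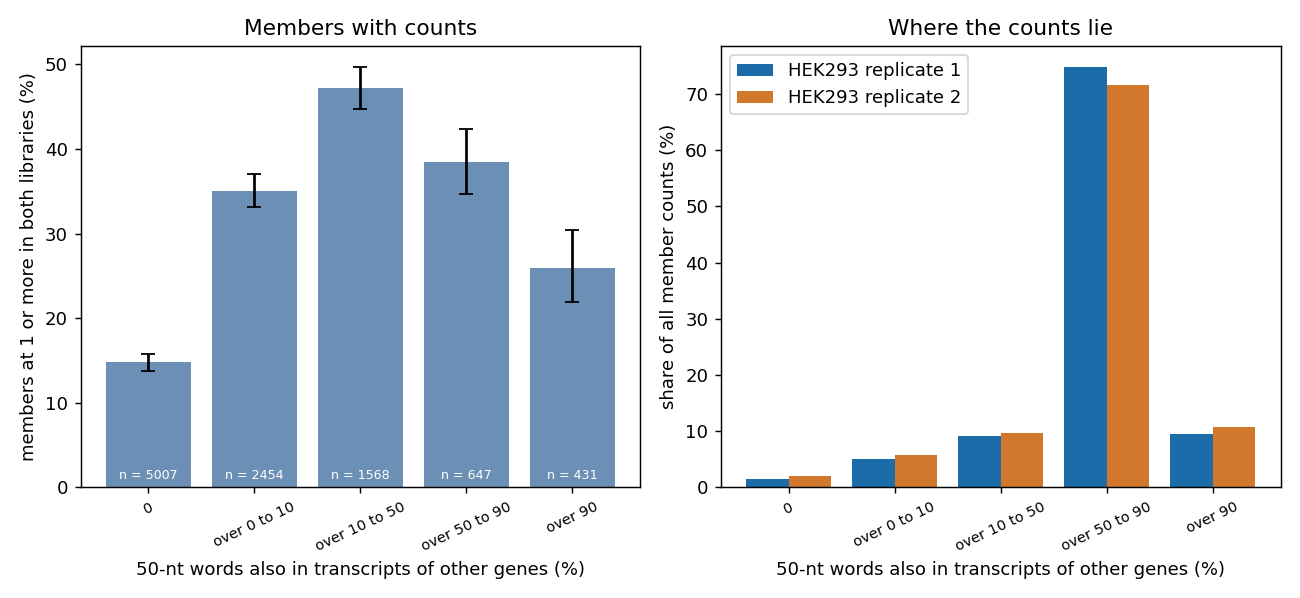
Members grouped by the share of their 50-nt words that also occur in transcripts of other genes (x, %). Left, share of members at 1 or more normalised counts in both libraries with exact 95% intervals, highest at 47.2% between 10 and 50%. Right, share of all member counts in each library, which reaches 74.8% and 71.6% between 50 and 90%.

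Members with at most 10% shared words numbered 7461, of which 1601 were at 1 or more in both libraries, and together they held 6.58% and 7.88% of member counts. ENSG00000213058 (chr1:178411616-178411972, plus strand), within an intron of RASAL2 on the same strand, held 14.8% and 12.5% of these. It stood at 9161 and 7751 per kb, or 72.9% and 61.8% of the summed level of RPS14 per kb, and ranked 13 of all members per kb. Not divided by length, it had 3271 and 2767 counts against 25443 and 25452 for RPS14. Of the RPS14 counts, 24008 and 24067 lay on a transcript of 2146 nt, of which the coding sequence makes up 456. RASAL2, a Ras GTPase-activating protein gene, had 1073 and 983 normalised counts summed over its transcripts. None of the 4 members named after RPS14 came close, and the highest of them, RPS14P8, stood at 96.6 and 93.4.

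The next members with mostly private sequence were RPS4XP22 at 669 and 503, GAPDHP40 at 316 and 530, RPS19P1 at 264 and 428, GAPDHP35 at 267 and 376, and ENSG00000203396 at 219 and 330. RPS4XP22 lies outside other genes on chromosome 19 and shared 0.410% of its words, and its level per kb was 1.61% and 1.54% of that of RPS4X. GAPDHP40, GAPDHP35, RPS19P1 and ENSG00000203396 were higher in replicate 2. ENSG00000213058 and RPS4XP22 were higher in replicate 1, as were the lower members RPS4XP6 (211 and 175) and RPL5P9 (332 and 161).

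Members at 1 or more in both libraries were longer than the others, with a median of 708 against 480 nt, and those with a parent shared a median of 2.61% of their words with it, against 0%. The median identity to the closest coding transcript was 93.0% for the 2310 of them that aligned and 89.8% for 4685 of the others. A longer transcript offers more positions for a read, and the part of length in this difference was not tested.

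Parents with many copies were followed next. RPL21 had the most, with 128 listed members, before PPIA (87), RPL23A (83), RPL7A (79), HNRNPA1 (69), RPSA (67), KRT18 (63), GAPDH (62), RPL7 (61) and RPL31 (60). These are ribosomal protein genes apart from PPIA, the splicing factor gene HNRNPA1, the keratin gene KRT18 and the glycolytic gene GAPDH. Summed per kb, the copies reached 62.7% and 40.8% of the level of RPL21, 57.1% and 45.3% of that of PPIA and 37.4% and 34.4% of that of RPL23A. They reached 24.99% and 28.01% of the level of RPL7 and 14.1% and 13.8% of that of HNRNPA1. For KRT18 the figures were 10.1% and 12.6%, for RPL7A 3.78% and 4.46%, for RPSA 3.21% and 2.89%, for GAPDH 2.17% and 2.71% and for RPL31 1.310% and 1.296%.

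For 6 of these 10 parents, a single copy held most of the counts of the family in both libraries. RPL21P16, whose words all occur in RPL21, held 93.1% and 88.1% of the counts on the 128 copies of RPL21 (2585 of 2777 and 1264 of 1435), and the next copy in the mean, RPL21P83, stood at 14.8 and 15.4. PPIAP22 held 97.4% and 95.9% of its family and RPL23AP42 held 93.2% and 92.7%. EEF1A1P5 held 98.5% and 98.2% of the counts on 44 copies of EEF1A1, 23 of which were at 1 or more in both libraries, and EEF1A1P6 followed at 1133 and 888.

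No copy held most of the counts in both libraries for RPL7A, RPL31, GAPDH and KRT18. RPL7AP30 held 48.6% of the RPL7A copies in replicate 1 and 30.4% in replicate 2, where another copy led, and RPL31P4 held 40.02% and 36.9% of the RPL31 copies. GAPDHP65 led the GAPDH copies with 34.1% and 27.2%, followed by GAPDHP40, which led in replicate 2, and KRT18P31 held 22.3% and 21.0% of the KRT18 copies. Over the 90 parents with at least 10 copies and at least 10 summed counts in each library, the leading copy held a median of 69.0% in replicate 1 and 65.2% in replicate 2. It was the same copy in both libraries for 73 parents (81.1%, exact interval 71.5 to 88.6%). The leading copy shared more words with the parent than the median of its family for 71 of the 90.

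The number of copies went with the level of the parent, as a description over parents that share both libraries. Over the 1687 parents at 1 or more in both libraries, Spearman's rho between the number of listed copies and the parent's level per kb was 0.394 in replicate 1 and 0.378 in replicate 2. The median level was 533 and 483 per kb for the 880 parents with 1 copy, 1073 and 921 for the 706 with 2 to 9, and 11812 and 9676 for those with 10 or more. KRT18, at 1113 and 1012 per kb, had 63 copies at a level near that of parents with 2 to 9.

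**Figure D3:**
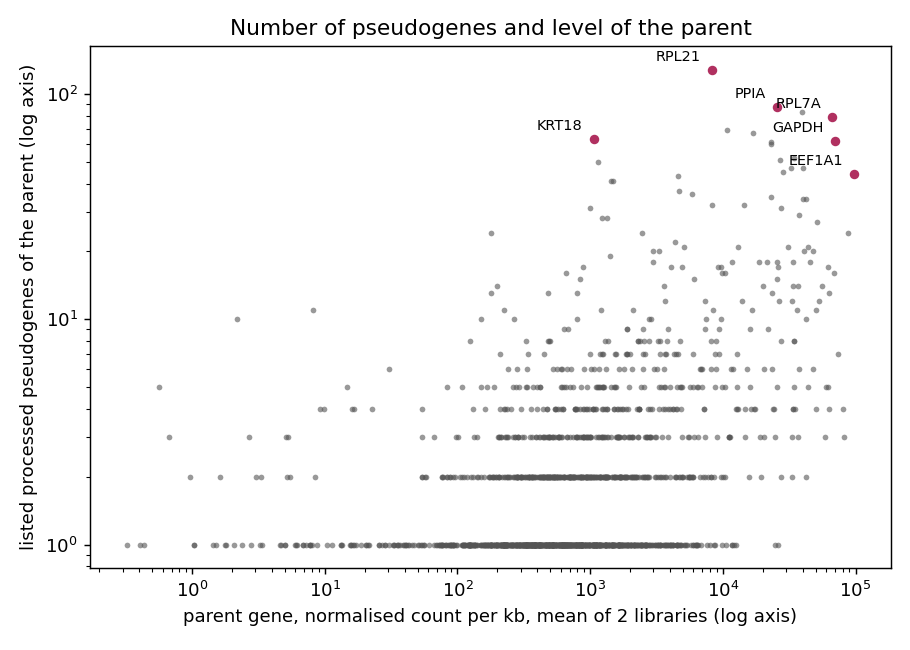
Number of listed processed pseudogenes of each parent (y, log axis) against the parent's level in normalised count per kb, mean of 2 libraries (x, log axis), for 1687 parents. Parents with many copies lie mostly to the right, RPL21 has the most with 128, and KRT18 with 63 lies near 1000 per kb.

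By the role of the parent, copies of cytosolic ribosomal protein genes were the most numerous of the 7 groups formed. They numbered 1519 from 79 parents, held 31.3% ± 2.08 of member counts, and 453 of them (29.8%, against 30.9% of all members with a parent) were at 1 or more in both libraries. Their median level per kb was 0.000329 and 0.000493 of the parent's, so that most were far lower than the few leaders. Copies of genes for translation factors and their partners numbered 167 and held 37.4% ± 3.74, almost all of it EEF1A1P5, and 45.5% were at 1 or more.

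The other groups held less. Shares at 1 or more were 39.4% for copies of glycolytic genes, 34.8% for chaperones and 32.6% for chromatin and RNA-binding proteins. They were 25.1% for cytoskeletal and 24.9% for mitochondrial proteins, against 30.9% of all members with a parent. For chaperones, 64 of 184 copies were at 1 or more and the group held 2.41% ± 0.260, with PPIAP22 first and CCT8P1, from a subunit of the cytosolic chaperonin, at 182 and 138. For chromatin and RNA-binding proteins, 123 of 377 were at 1 or more and the group held 3.62% ± 0.157, with NPM1P27 first and SUMO2P21 at 1615 and 971. For glycolytic enzymes, 37 of 94 were at 1 or more and the group held 0.879% ± 0.135, with GAPDHP65 at 521 and 503.

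Cytoskeletal genes had 48 of 191 copies at 1 or more, holding 0.297% ± 0.0417, with TMSB10P1, from the actin-binding peptide thymosin beta 10, at 257 and 229 and ACTG1P14 at 144 and 113. Nuclear genes for mitochondrial proteins had 99 of 398, holding 1.39% ± 0.351. Their leader UQCRFS1P1, a copy of the gene for the Rieske subunit of complex III, stood at 747 in replicate 1 and 1607 in replicate 2, and VDAC2P5, from a gene for an outer membrane channel, at 963 and 727. Per kb, UQCRFS1P1 was at 37.6% of its parent in replicate 1 and 111% in replicate 2.

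Compared with the parent, most copies were low. Among the 1873 members with a parent that were at 1 or more in both libraries, the median ratio of member to parent per kb was 0.00371 in replicate 1 and 0.00471 in replicate 2, leaving out parents at 0. It was below 0.01 in both libraries for 1124 members and at least 0.1 in both for 130. The median was 0.00162 and 0.00259 for members with no shared word, 0.0267 and 0.0310 for those with 50 to 90% of words shared, and 0.0153 and 0.0315 for those with over 90%. It was thus higher at 50 to 90% than with no shared word in both libraries, while above 90% it was lower than at 50 to 90% in replicate 1 only. With members at 10 or more only, the median was 0.0184 over the libraries, and with replicate 1 alone, where members at 1 or more in that library enter, it was 0.00241.

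EEF1A1P5 stood at 92605 and 66608 per kb, against 106079 and 89144 for EEF1A1, or 87.3% and 74.7%. The parent's value rests on how its counts fell between its own transcripts, since protein-coding transcripts of EEF1A1 held 2.72% of its counts in replicate 1 and 43.5% in replicate 2. The remainder lay mostly on transcripts annotated as retaining an intron, ENST00000490569.5 first with 143086 and 76978. Set against the protein-coding transcripts alone, at 2381 and 39159 per kb, EEF1A1P5 was 38.9 and 1.70 times as high.

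A member was called above its parent where its level per kb was the higher in each library and the means lay further apart than both SDs added together. The call was made for 30 of the 1873 members (1.60%), while 1813 lay below their parent by the same measure and 30 were neither. For unprocessed pseudogenes and the genes their symbols name, the same call was made in 8 of 107 (7.48%). Of the 30, 11 had a parent at 0 in both libraries, 13 had a parent at 1 or more in both, and 5 had a parent at 10 or more in both. Their own counts were low, under 10 in the mean for 21 members. From replicate 1 or replicate 2 alone, where no SD enters, 54 and 56 members were above the parent. Set against the protein-coding transcripts of the parent alone, 40 members were called. Of the 25 highest members, EEF1A1P5, RPL14P1, RPS23P8 and RPL22P1 were higher than their parent per kb in both libraries on that basis. For RPL14P1 the ratio was then 51.7 and 29.5 in place of 0.312 and 0.211, and for RPS23P8 it was 8.29 and 7.47 in place of 0.725 and 0.574.

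RPL22P1 was the highest of the 30. It stood at 17067 and 11912 per kb against 6221 and 3947 for RPL22, a ratio of 2.74 and 3.02, and the next copies, RPL22P3 and RPL22P7, had 6.52 and 13.4 and 7.41 and 6.49 normalised counts. Not divided by length, RPL22P1 at 6997 and 4884 lay below RPL22, whose transcripts together had 8450 and 5669. Of these counts, RPL22 had 5435 and 3823 on its transcript of 2061 nt, of which the coding sequence makes up 387. CDC26P1, identical over its whole length to the gene for a subunit of the anaphase-promoting complex, was at 396 and 294 per kb against 173 and 151. Not divided by length, it too lay below its parent, at 102 and 75.9 against 150 and 130.

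RPS27P3 (1859 and 2291 per kb against 1227 and 1231 for RPS27) and EIF3FP3 (210 and 279 against 100.1 and 65.2 for EIF3F) were also called. Not divided by length, RPS27P3 was at 474 and 584 against 665 and 666, and EIF3FP3 at 228 and 303 against 336 and 221. The MANE Select transcripts of RPS27 and EIF3F were not among the transcripts analysed here, as was the case for 47 of 1741 parents, so that these ratios lack the parent's main mRNA. With such parents left out, 27 members were called. The remaining 6 of the 10 highest calls had parents at low levels, all given per kb. ENPP7P12 was at 58.8 and 83.5 against 0 and 1.39, CDRT15P9 at 73.9 and 56.0 against 18.5 and 14.5, and SEPTIN14P12 at 20.8 and 39.7 against 0.846 and 0.497. TUBB8P1 was at 23.3 and 16.6 against 4.69 and 5.52, PTCHD3P2 at 7.90 and 10.8 against 0.556 and 0, and ARGFXP2 at 6.69 and 12.7 against a parent at 0 in both libraries. SEPTIN14P12 and ARGFXP2 aligned best to the parent their symbol names. ENPP7P12, CDRT15P9 and PTCHD3P2 aligned to no coding transcript, and TUBB8P1 aligned best to TUBB8B, at 79.5% identity. These last members shared no 50-nt word with the parent taken from their symbol. With transcripts of other genes at large, ENPP7P12 shared 82.1% of its words and CDRT15P9 57.8%. For PTCHD3P2 that share was 0.0865% and for TUBB8P1 it was 0%.

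Of the 30 members called above their parent, 22 (73.3%) lay in an intron of another gene, against 59.6% of all 1873 members compared. At most 10% of words were shared with other genes by 21 of the 30, against 56.6% of the 1873, and neither difference was tested. SEPTIN14P12 lies on the same strand as ASPM, a gene of the mitotic spindle at 2000 and 1251 normalised counts. TUBB8P1 in MTAP, PTCHD3P2 in KLHL23 and ARGFXP2 in RHOT1 lie on the strand opposite to these genes. ENPP7P12 and CDRT15P9 lie outside other genes. Per kb, 5 further members were above the parent in both libraries without passing the SD criterion, among them PSMC1P1, BTF3L4P2 and FABP5P7. PSMC1P1, a copy of a proteasome ATPase gene with a single substitution along 1320 bases, was almost level with PSMC1, at 916 and 713 per kb against 910 and 690. That substitution, T885A, makes codon 295 of 440 a stop.

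**Figure D4:**
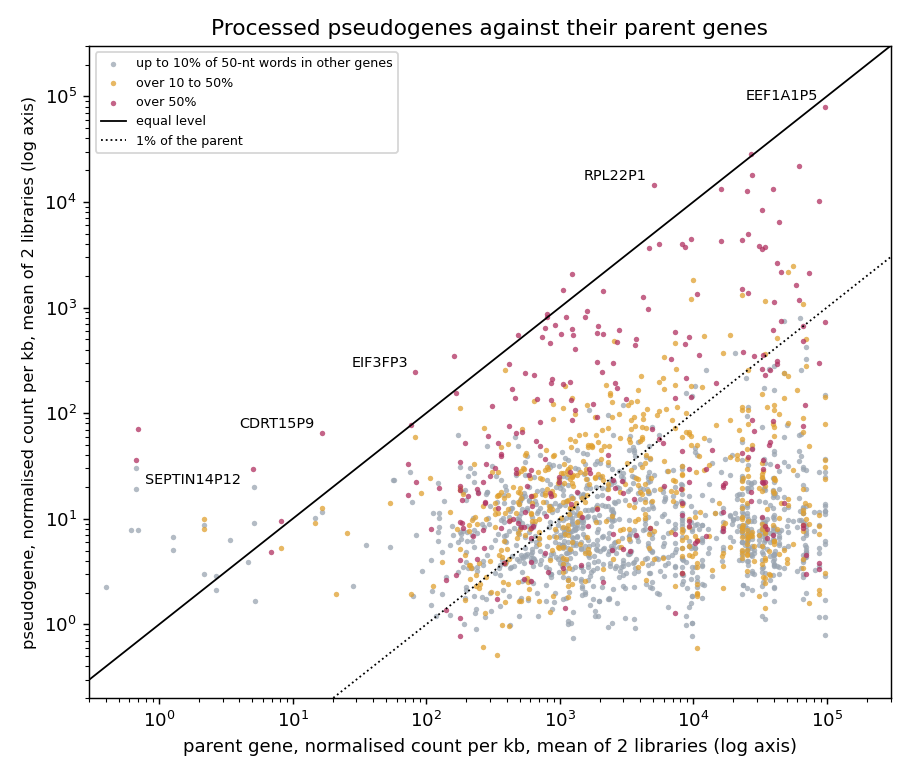
Level of each processed pseudogene (y) against its parent (x), both in normalised count per kb as the mean of 2 libraries on log axes, for members at 1 or more in both libraries with a parent above 0, coloured by the share of 50-nt words in other genes, with a solid line at equal level and a dotted line at 1% of the parent. Most points lie far below the solid line, and RPL22P1 lies above it among abundant parents.

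Position was examined because a copy inside a gene can be covered by reads of that gene's RNA. Outside other genes lay 5084 members, of which 16.4% were at 1 or more in both libraries. In introns, 38.3% of 1730 on the same strand as the other gene and 36.0% of 2636 on the opposite strand only were at 1 or more, and of those overlapping an exon, 47.3% of 184 on the same strand and 35.3% of 481 on the opposite strand only. Members outside other genes held 56.8% ± 3.07 of member counts, EEF1A1P5 included, and members overlapping an exon held 6.72% of member counts.

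For intronic members with at most 10% shared words, the share at 1 or more followed the level of the surrounding gene. Where several genes surrounded a member, the one with the highest count was used, whatever its strand. For members grouped under the same strand, that gene can therefore lie on the opposite strand. On the same strand it was 7.94% where that gene had up to 1 normalised count, 17.3% up to 100, 49.7% up to 1000 and 66.3% above 1000 (173 of 261, exact interval 60.2 to 72.0%). On the opposite strand it was 6.56%, 16.0%, 42.0% and 59.0% (308 of 522, 54.6 to 63.3%). For comparison, 11.2% of the 3877 such members outside other genes were at 1 or more. Spearman's rho between the counts of the member and of the surrounding gene was 0.507 and 0.532 over 1381 members on the same strand and 0.495 and 0.528 over 2075 on the opposite strand, as a description over members that share the libraries and, in part, the gene. Whether counting used strand is not given in the sources used here, and the part of the surrounding gene's RNA in these counts was not tested.

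**Figure D5:**
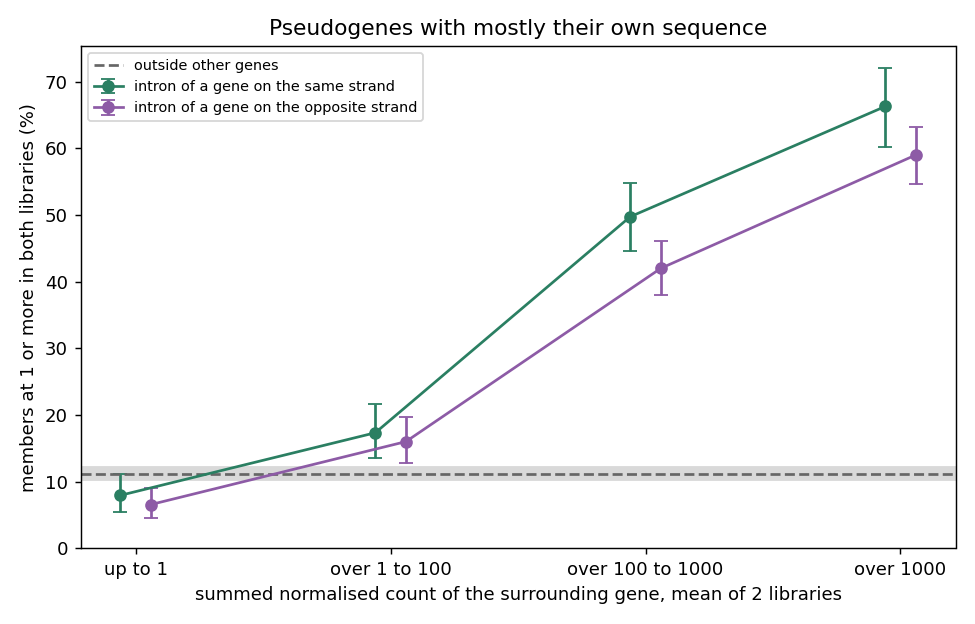
Share of intronic members with at most 10% shared words that were at 1 or more normalised counts in both libraries (y, %), by the summed normalised count of the surrounding gene (x), with exact 95% intervals. The share climbs from 7.94 to 66.3% on the same strand and from 6.56 to 59.0% on the opposite strand, and the dashed line with grey interval marks 11.2% for members outside other genes.

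Differences between the libraries were less frequent among the members than among transcripts at large, as counts without a test. Among the 1017 members whose mean reached 10, the values of 176 lay over 2-fold apart (17.3%, exact interval 15.0 to 19.8%), 87 being higher in replicate 2 and 89 in replicate 1. Among all transcripts with such a mean the share was 30.6%, and for protein-coding transcripts 31.2%. At a mean of 100 or more it was 6.28% of 191 members and 15.3% of protein-coding transcripts.

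Of the members whose mean reached 10, 6 were at 0 in 1 library, and 5 of these are given here. Among members above 0 in both libraries, RPL7P21 differed most, at 51.1 and 2.45, a log2 ratio of replicate 2 to replicate 1 of -4.38. SLC2A3P1 stood at 0 and 231, which is 72.9-fold over a floor of 3 counts in the library at 0. RPL9P7 was at 0 and 182 (57.2-fold over the floor), RPS26P19 at 0 and 65.4 (20.6-fold) and ZBTB45P1 at 0 and 36.4 (11.5-fold). ENSG00000219023 went the other way, from 110 to 0 (39.6-fold over the floor). The floor allows for the sampling of reads but not for how reads shared with other genes were divided, so these folds are no lower bounds. SLC2A3P1 overlaps an exon of PANK3 on the same strand, RPS26P19 one of POLR2D on the same strand and ZBTB45P1 one of LINC01123 on the opposite strand. All words of these members were shared with other genes. SLC2A3P1 was identical along its 1451 bases to a transcript of PANK3, and RPS26P19 along its 349 bases to one of POLR2D. RPL9P7 shared 90.6% and ENSG00000219023 shared 24.2%.

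An open reading frame, taken from an ATG to a stop or the end of the transcript, reached at least 95% of the parent's codon number in 452 of 6056 members (7.46%). The share was 10.7% for members at 1 or more in both libraries (exact interval 9.37 to 12.2%), 5.999% for the others and 42.4% for the 139 at 100 or more in both (34.1 to 51.1%). Members with high counts also shared more sequence with other genes, and the part of this in the difference was not tested. Of the 25 highest members, 17 had such a frame when the closest coding gene stood in for a parent that the symbol does not name. Among them were EEF1A1P5 with 462 codons and RPL39P3 with 51. The frame had 95 codons in RPL22P1 against 128 in RPL22, 71 in NPM1P27 against 294 in NPM1, and 62 in ENSG00000213058 against 151 in RPS14. Only lengths were compared, not whether the frame is that of the parent. The tables hold RNA counts only, so that no protein was measured.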

How the data were processed

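Total RNA depleted of ribosomal RNA was sequenced from 2 samples of HEK293 Flp-In T-Rex cells. The deposited tables of all transcripts give, per the file headers, RSEM expected counts (estimated counts, which need not be whole) and an EBSeq-normalised signal, called normalised count here, both made by the authors on Ensembl transcripts of GRCh38. The submitters' processing notes name STAR 2.7.0d, RSEM 1.3.3, R 3.6.3 and FastQC. Because such counts divide reads that match several transcripts, the values of near-identical members rest on that division. The METTL8 isoform tables were not used.

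Identifiers of transcripts, stripped of their version, were looked up in GENCODE v44 (GRCh38), where 202217 of 206696 were found. The annotation release used by the authors was an earlier one. Parents were taken from symbols, and levels per kb were divided by the GENCODE length. Closest coding sequences came from BLAST 2.17.0 (e-value 1e-10), overlaps from bedtools 2.31.1 and all else from Python 3.11.15 with pandas, scipy and Biopython. The BLAST search used members in the sense orientation only. Shares have exact intervals at 95%. The counting of words and the calls were tested on simulated data. Replicate 1 and replicate 2 formed 1 group, so no test between groups was made.

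Members, lists and rules were chosen with earlier results of these data known. Named are the 25 members with the highest value in the lower library, the 10 parents with the most members, the 2 highest members of each of 7 parent lists, the 10 highest members called above their parent and the 5 with the largest difference between libraries. Of the 25 members, 1 is not reported here by name. Whether counting used strand is not given in the sources used here. Others that a passage turns on, such as the members with mostly private sequence and PSMC1P1, were chosen after their values were seen.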

Additional observations from a re-analysis of the deposited data

Results flagged for a closer look

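Outside the members and their parents, 4479 listed transcripts had no entry in GENCODE v44 and so entered no comparison. Their estimated counts summed to 788418 (replicate 1) and 859242 (replicate 2), which is 3.13% and 3.17% of the library totals and above the limit of 3 counts that a value of 0 allows. Their transcript class was not looked up here, and no control samples were at hand. Groups of 2 libraries were not searched for a sample far from the others.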

How the results depend on the processing

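Dividing by length raised the share of processed pseudogenes to 1.82% of the total, adding transcribed processed pseudogenes raised it to 1.31%, a total without misc_RNA, ribozymes and snRNA to 1.44%, and leaving out EEF1A1P5, chosen after seeing the data as were the alternatives by closest sequence and MANE Select transcript, lowered it to 0.766%. Single libraries gave 1.12 to 1.26%. In place of 2702 members at 1 or more, 445 remained at 1 estimated count per 1000000 and 847 at 10 or more, and single libraries gave 3194 to 3656. The 20 highest held 60.7% with transcribed processed pseudogenes and 48.4% without EEF1A1P5, the 10 highest held 55.1%, and single libraries gave 64.1 to 68.1%. The median ratio to the parent, 0.00421 over both libraries, was 0.00218 without length, 0.0184 at 10 or more, 0.00130 for members above 0 in either library, 0.00568 against protein-coding transcripts only, 0.00593 against the closest coding sequence and 0.00241 to 0.00386 in single libraries. Members above their parent numbered 19 without length, 8 at 10 or more, 51 by closest sequence and 54 to 56 in single libraries, where no SD could be had. Members over 2-fold between libraries made up 41.0% at a mean of 1 or more and 6.28% at 100 or more. The share of member counts in members overlapping an exon was 6.14% per length, 8.46% with transcribed processed pseudogenes, 2.81% on the same strand, 43.2% over whole gene spans, 10.4% without EEF1A1P5 and 6.44 to 7.01% in single libraries. Spearman's coefficient between copy number and parent level was 0.320 without length, 0.373 for protein-coding transcripts, 0.408 for parents with at least 2 copies and 0.378 to 0.394 in single libraries. The median share of words in the parent was 17.3% with 25-nt words, 0% with 100-nt words and 12.6% at 10 or more. Beyond fewer or more transcripts entering, the cause of these shifts was not tested. With 2 libraries, a single library can never lie beyond 1 SD of the mean of both, so these ranges say nothing about stability, and no paired analysis was possible because there is a single group.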
